A study of Mus musculus with 3 samples.

Results

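The interferon-inducible GTPases studied here are 9 genes of 31053 in the deposited count table, chosen by symbol: the immunity-related GTPases (IRGs) Iigp1, Gm4951, Igtp, Irgm1, Irgm2 and Ifi47, and the guanylate-binding proteins (GBPs) Gbp2, Gbp3 and Gbp7. Cells were Lin-Sca1+ckit+ (LSK) bone marrow cells, a sort that contains haematopoietic stem cells together with early progenitors, from 2 Helios-deficient mice (hashtags 1 and 2) and 2 wild-type mice (hashtags 3 and 4). Helios, encoded by Ikzf2, is an Ikaros-family transcription factor that binds DNA through zinc fingers. The deleted part of the gene, the strain, the age and the sex of the mice are not given in the sources used here, and it is not stated whether the deficiency extends beyond blood cells. The labels describe no interferon treatment or infection. All 4 mice were pooled in 1 droplet run, each under its own hashtag antibody, and surface CD48, CD150, Flt3 and CD41 were read through tagged antibodies.

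Interferons bind receptors on most cells and act through JAK kinases, STAT proteins and IRF transcription factors on promoter elements called ISRE and GAS. IRG and GBP genes are classical targets of this route, most of all of interferon gamma. Their proteins are large GTPases that gather on the vacuoles of intracellular parasites and bacteria. Iigp1 (Irga6) and Ifi47 (Irgd) belong to the effector class of IRGs, whereas Irgm1, Irgm2 and Igtp (Irgm3) are the regulatory class, which sits on the cell's own membranes and keeps effectors off them. In mice, Irgm1 is also known for keeping stem cells from excess proliferation under interferon.

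The genes lie in clusters of the mouse genome. In RefSeq's GRCm38.p6 models, Gbp7 (chr3:142530336-142550151), Gbp3 (chr3:142560016-142573213) and Gbp2 (chr3:142620663-142638008) are neighbours on chromosome 3. Irgm1 (chr11:48865245-48871420) and Ifi47 (chr11:49076587-49096987) lie on chromosome 11, as do Igtp (chr11:58199556-58207592) and Irgm2 (chr11:58214977-58222783). Gbp3 overlaps Gm40158, Ifi47 overlaps Gm12188 and Gbp2 overlaps Mir6381. Both families hold close copies, and how reads shared by copies or overlapping genes were counted is not given in the sources used here, so values of single genes carry that uncertainty.

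RefSeq promoter windows, from 250 bases before to 50 bases after a gene's start, were searched for 7 of the 9 genes. Iigp1 and Gm4951 were left out of this search, so nothing is said here of their promoters. The ISRE core, GAAA followed after any 2 bases by GAAA and searched on both strands, stood in a window of 6 of these 7, namely all except Ifi47, and in 3.44% of all 32851 windows of this length. The GAS core, TTC followed after any 3 bases by GAA, stood in the windows of Igtp, Irgm2 and Gbp7, and in 8.30% of all windows. The stretches below show the ISRE core nearest the start of each gene, because this element stood in a window of all but 1 of the genes searched. Each is read 5′ to 3′ on the gene's strand, and capitals mark every ISRE core match, which reads TTTC, 2 bases, TTTC where it lies on the other strand.
Igtp (chr11:58199497-58199556, plus strand): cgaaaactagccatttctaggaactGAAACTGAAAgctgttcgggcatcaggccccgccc
Irgm2 (chr11:58214888-58214947, plus strand): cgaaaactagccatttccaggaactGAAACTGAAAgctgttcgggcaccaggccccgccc
Irgm1 (chr11:48871410-48871469, minus strand): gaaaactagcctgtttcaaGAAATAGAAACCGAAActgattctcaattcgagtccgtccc
Gbp7 (chr3:142530258-142530317, plus strand): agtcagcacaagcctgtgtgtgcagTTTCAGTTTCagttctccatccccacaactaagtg
Gbp3 (chr3:142559980-142560039, plus strand): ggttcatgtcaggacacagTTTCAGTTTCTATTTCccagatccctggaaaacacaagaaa
Gbp2 (chr3:142620579-142620638, plus strand): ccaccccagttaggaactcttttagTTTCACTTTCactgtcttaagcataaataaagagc
Irgm1 and Gbp3 each hold 2 overlapping matches. The first base of the match nearest the start lay 34 bases before it in Igtp, 64 in Irgm2, 24 in Irgm1, 53 in Gbp7, 39 in Gbp3 and 59 in Gbp2. Here the start is that of the RefSeq window, which for Gbp3 lies inside the gene model given above, so that its printed stretch runs past the first base of the model. A second Gbp3 window held no match. The windows of Igtp and Irgm2 were 90.4% identical over 270 aligned columns. A match is a description of the letters, not a measured binding site.

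The 3470 cells kept by the authors were used, 557 and 824 from the Helios-deficient mice and 1175 and 914 from the wild-type mice. A mouse's cells held 5729987 to 10317599 unique molecular identifiers (UMIs, each counting 1 captured RNA molecule). Levels are given as CPM, a gene's UMIs scaled by the total UMIs of the same mouse or group of cells. Kit and Ly6a (Sca1), the genes that define the sort, stood at 82.5 to 94.8 CPM and 128 to 157 CPM across the 4 mice. Ikzf2 RNA measured 73.6 and 82.7 CPM in Helios-deficient mice, against 70.6 and 67.7 CPM in wild-type mice, a log2 difference of 0.18 (SE 0.08) with an adjusted p of 0.460 in edgeR's quasi-likelihood test. Because the deleted part is not given and the assay counts 3′ ends, this level does not check the labels.

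Of the 9 genes, Gm4951 was called between genotypes, and it was higher in Helios-deficient cells. Gm4951 (chr18:60212004-60248440 in GRCm38.p6, where it overlaps Gm5970) lies on the same chromosome as Iigp1 (chr18:60373616-60392634). Gm4951 measured 20.4 and 19.0 CPM in the Helios-deficient mice, against 13.3 and 8.13 CPM in the wild-type mice. Both Helios-deficient mice were above both wild-type mice. The log2 difference was 0.85 (SE 0.18), with an adjusted p of 0.0416 in edgeR's quasi-likelihood test over 11592 genes. UMIs were summed per mouse for this test, the Benjamini-Hochberg adjustment was used, and 0.05 was the threshold. With this rule 0.794% of all genes were called in either direction, and 0.362% were called higher. The call was lost with DESeq2 (adjusted p = 0.321), without wild-type mouse 2 (0.174, log2 difference 0.57), without the robust option of the fit (0.0968) and after thinning every cell to 3000 UMIs (0.120). Where 1 mouse is left out of a comparison of genotypes, its genotype has 1 mouse left, which is assumed to vary like the other genotype's mice.

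The other 8 genes were not called. Iigp1 measured 38.0 and 38.9 CPM in the Helios-deficient mice, against 37.9 and 20.8 CPM in the wild-type mice. Wild-type mouse 2 stood apart there, while wild-type mouse 1 lay only just below the Helios-deficient mice. The log2 difference was 0.37 (SE 0.36, adjusted p = 0.826 in edgeR), and without wild-type mouse 1, with wild-type mouse 2 as the single wild type and the spread taken from the Helios-deficient mice, it was 0.89 with an adjusted p of 2.9e-05. Igtp measured 41.0 and 35.8 CPM in the Helios-deficient mice, against 34.4 and 28.8 CPM in the wild-type mice.

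Among the GBPs, Gbp7 measured 57.2 and 56.4 CPM in the Helios-deficient mice, against 50.9 and 43.3 CPM in the wild-type mice. Gbp3 measured 26.4 and 29.8 CPM in the Helios-deficient mice, against 25.5 and 21.9 CPM in the wild-type mice. With Gm4951 and Iigp1, 5 of the 9 genes thus had both Helios-deficient mice above both wild-type mice, where 19.9% of all genes tested did. Igtp, Gbp7 and Gbp3 had log2 differences of 0.27 (SE 0.11), 0.27 (SE 0.09) and 0.25 (SE 0.12), and adjusted p of 0.416, 0.270 and 0.481 in edgeR. In Irgm1, Irgm2, Gbp2 and Ifi47 the mice of the 2 genotypes overlapped, with log2 differences of 0.05 to 0.20.

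All 9 differences were positive, with a median of 0.25, beside a median of -0.00029 over all genes tested. The summed members measured 390 and 411 CPM in the Helios-deficient mice, against 380 and 324 CPM in the wild-type mice. Of 13 other IRG and GBP family genes tested, 0 were called between genotypes in edgeR (median log2 difference 0.01, 1 at an unadjusted p under 0.05). The same held for 18 interferon receptor and signalling genes (-0.09, 1) and 28 other interferon-stimulated genes (0.10, 2), and DESeq2 called 0 in each of the 3 lists. Over all genes tested 10.4% had an unadjusted p under 0.05, which is above the share in each of these lists. All 9 interferon genes looked up, among them Ifng and Ifnb1, had 0 UMIs.

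Markers of other cell types also differed between the mice. The 10 granulocyte markers came to 414 and 395 CPM in the Helios-deficient mice, against 208 and 80.2 CPM in the wild-type mice, with Ctsg called (log2 difference 1.5). Of these markers Elane and Ctsg also led a cluster of the sorted cells themselves, the myeloid-primed-like one of 470 cells. The 10 B and plasma cell markers came to 180 and 1308 CPM in the Helios-deficient mice, against 6189 and 228 CPM in the wild-type mice. The 13 macrophage and dendritic markers came to 193 to 229 CPM over the 4 mice. The 11 T and NK cell markers came to 241 to 286 CPM with Cd3e and Cd8a at 0, and 1 of them, Nkg7, was also a myeloid-primed marker. The 8 erythrocyte and platelet markers came to 182 to 380 CPM. With equal numbers of cells of each cluster in every mouse, the Gm4951 difference was 0.998 (adjusted p = 0.0337 in edgeR). Without cells that held 10 or more UMIs of macrophage, B or plasma cell markers, the Gm4951 difference was 0.87 (adjusted p = 0.0231 in edgeR). In summed cells, more cells with RNA of a gene and more RNA per cell cannot be told apart.

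**Figure D1:**
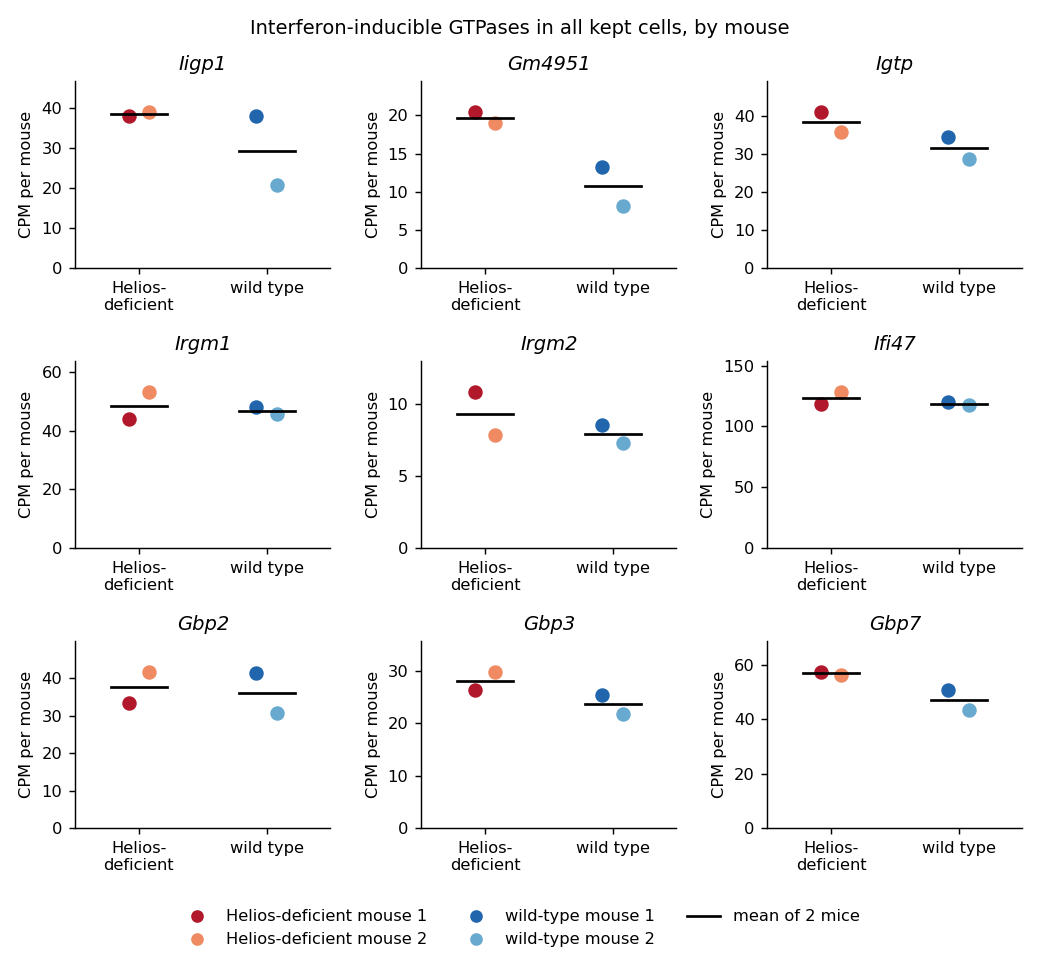
CPM of each gene per mouse (y axis, from 0) in all kept cells, with Helios-deficient mice at the left and wild-type mice at the right of each panel; points are mice and bars the mean of 2 mice. Gm4951 separates the genotypes most widely, while wild-type mouse 2 alone lies low for Iigp1.

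The genes were also compared between cells with and without RNA of Ifit1, a gene induced mainly by type I interferon through the ISRE and not itself an IRG or GBP. Of the kept cells, 402 held at least 1 Ifit1 UMI, and 3068 held 0. The Ifit1-positive share was 11.1% and 13.6% in the Helios-deficient mice, against 12.1% and 9.41% in the wild-type mice. Their cells differed in depth, with medians of 8670 and 8461 UMIs in the Helios-deficient mice, against 7599 and 7627 in the wild-type mice. These shares were not adjusted for depth. Pooled over all clusters, positive cells had a median of 7443.5 UMIs, against 8004.5 in negative cells. Within cluster 5, positive cells were slightly deeper in every mouse, with medians of 6149 to 7031 UMIs, against 6074 to 6654.5 UMIs. Among HSC-like and lymphoid-primed-like cells they were deeper in some mice and shallower in others. How far depth affects the detection of Ifit1 was not tested. The share ranged from 19.9% in cluster 5 (exact Clopper-Pearson 95% interval 16.1 to 24.0%, median depth 6460 UMIs) to 3.15% among megakaryocyte-primed-like cells (0.865 to 7.87%, 11591 UMIs). It was thus lower in the deeper of these 2 groups of cells. How much of it free RNA gives was not measured, and the intervals cover counting error only.

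In Ifit1-positive cells, 8 of the 9 genes were higher in edgeR's test with the mouse as a block, where 3.18% of 10245 genes were called higher and 7.46% in either direction. Gm4951 and Iigp1 rose most. Gm4951 stood at 80.2, 63.0, 42.5 and 33.8 CPM in the Ifit1-positive cells of Helios-deficient mice 1 and 2 and wild-type mice 1 and 2, against 14.1, 12.7, 9.60 and 5.42 CPM in their Ifit1-negative cells. Positive cells were higher in 4 of 4 mice with no overlap, a log2 difference of 2.36 (SE 0.16, adjusted p = 5.9e-25 in edgeR).

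Iigp1, an effector that loads onto parasite vacuoles, stood at 139, 116, 141 and 42.5 CPM in Ifit1-positive cells of the same mice, against 27.4, 28.1, 24.9 and 18.5 CPM in negative cells. Wild-type mouse 2 had the smallest difference, and the positive and negative cells still did not overlap. The log2 difference was 2.14 (SE 0.14, adjusted p = 1.7e-11 in edgeR).

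The 3 regulatory IRGs also rose. Irgm1 stood at 85.7, 107, 93.6 and 86.3 CPM in Ifit1-positive cells, against 39.6, 45.4, 42.1 and 41.2 CPM in negative cells of the same mice. Its log2 ratio was between 1.07 and 1.24 in every mouse, the narrowest spread among the 9 genes, and the fitted log2 difference was 1.15 (SE 0.10, adjusted p = 2.5e-18 in edgeR). Igtp stood at 109, 63.0, 69.3 and 40.04 CPM in positive cells, against 33.8, 32.0, 30.01 and 27.6 CPM in negative cells, a log2 difference of 1.13 (SE 0.12, adjusted p = 8.0e-12 in edgeR). Irgm2, which had 66 UMIs in all positive cells, stood at 32.8, 13.4, 23.4 and 8.76 CPM there, against 8.49, 7.05, 6.66 and 7.14 CPM in negative cells. Its log2 difference was 1.37 (SE 0.24, adjusted p = 6.3e-06 in edgeR), and it was not overlapping between states.

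The GBPs and Ifi47 moved less. Gbp7 and Gbp2 had log2 differences of 0.89 (SE 0.11) and 0.86 (SE 0.12), with adjusted p of 3.1e-08 and 6.5e-09 in edgeR. In wild-type mouse 2, Gbp7 stood at 46.3 CPM in positive cells, against 43.0 CPM in negative cells, so that mouse showed almost none of the difference. Ifi47 stood at 146, 158, 169 and 140 CPM in positive cells, against 115, 124, 114 and 115 CPM in negative cells, a log2 difference of 0.40 (SE 0.07, adjusted p = 9.1e-06 in edgeR).

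Gbp3 was the exception, with 20.05, 38.2, 45.9 and 22.5 CPM in positive cells, against 27.0, 28.6, 22.9 and 21.8 CPM in negative cells. Helios-deficient mouse 1 went the other way, and the states overlapped. The log2 difference was 0.45 (SE 0.16, adjusted p = 0.0687 in edgeR), and without that mouse it was 0.58 with an adjusted p of 0.0139.

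**Figure D2:**
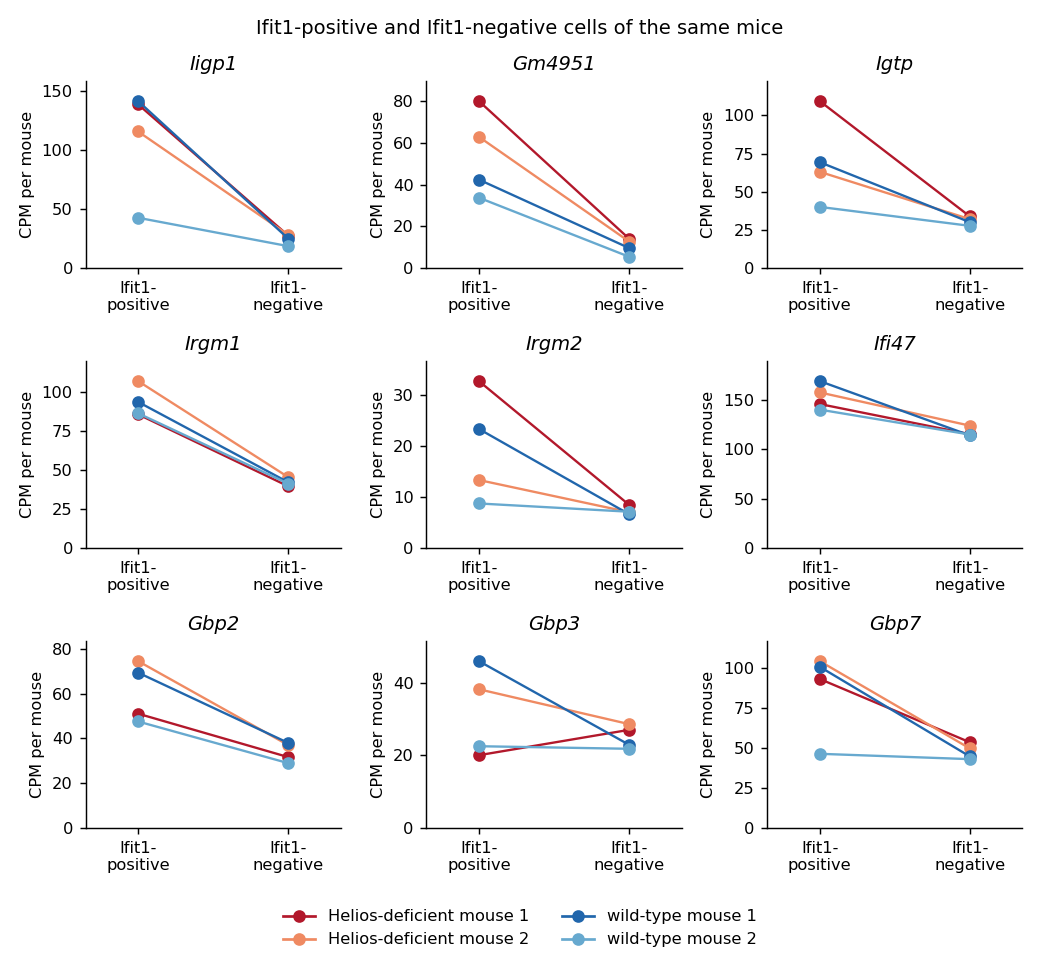
CPM of each gene (y axis, from 0) in Ifit1-positive cells (left of each panel) and Ifit1-negative cells (right); each line joins the 2 states of 1 mouse. Lines fall to the right in all 4 mice for 8 genes, and in 3 of 4 for Gbp3.

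The summed level was higher at each step in the number of Ifit1 UMIs of a cell, in 4 of 4 mice. Summed over the 9 genes, cells with 0, 1, 2 and 3 or more Ifit1 UMIs (3068, 276, 57 and 69 cells) stood at 338, 487, 654 and 1564 CPM. Iigp1 stood at 24.5, 59.3, 98.1 and 345 CPM over these steps, and Gm4951 at 10.1, 25.3, 54.7 and 168 CPM. Ifi47 stood at 117, 123, 155 and 298 CPM, and Gbp3 at 24.8, 28.1, 25.1 and 68.6 CPM, so both stood well above the 0-UMI cells only in the last step. Single genes did not all follow the steps, since Gbp2 stood at 51.0 CPM at 1 UMI and 45.6 CPM at 2 UMIs. Nor did all mice, since Iigp1 in Helios-deficient mouse 2 stood at 78.1 CPM at 1 UMI and 40.6 CPM at 2 UMIs. At 3 or more UMIs the summed level was 782 CPM in wild-type mouse 2, against 1578 to 1776 CPM in the other 3 mice. With cells of 2 or more Ifit1 UMIs set against those with 0, all 9 genes were called, Gbp3 with a log2 difference of 0.93 (adjusted p = 0.00623 in edgeR), where 4.13% of all genes were called.

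**Figure D3:**
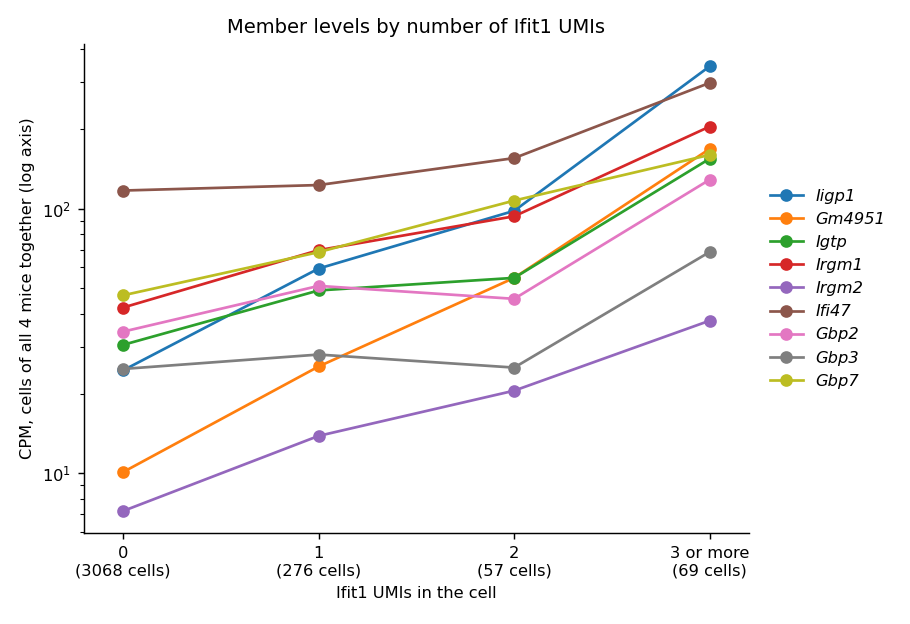
CPM (log axis) of each gene over the cells of all 4 mice together, by the number of Ifit1 UMIs in the cell (x axis; cell numbers in brackets). Iigp1 and Gm4951 climb at each step, from 24.5 to 345 CPM and from 10.1 to 168 CPM, while Ifi47 stays between 117 and 155 CPM up to 2 UMIs.

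Most of the genes' UMIs were nevertheless in cells without a detected Ifit1 UMI. Some of those cells may hold Ifit1 RNA that was missed, so this is no measure of RNA outside an interferon response. Ifit1-positive cells held 10.8% of all UMIs, 38.6% of Gm4951's, 35.5% of Iigp1's, 23.8% of Irgm2's, 21.3% of Irgm1's and 21.01% of Igtp's UMIs. The shares of Gbp7 (18.5%), Gbp2 (18.2%), Gbp3 (14.4%) and Ifi47 (13.9%) were nearer to that of all genes. Within single cells thinned to 3000 UMIs, 15.9% of Iigp1-positive cells held Gm4951, against 3.67% of Iigp1-negative cells. That ratio of 4.34 was the highest among pairs of the 9 genes, and the lowest was 1.001, for Irgm1 and Irgm2. Of cells in which 5 or more of the 9 genes were detected, 43.2% of 37 were Ifit1-positive, against 3.48% of the 1234 cells with none.

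Other interferon-stimulated genes were higher in the same cells. Of 24 other interferon-stimulated genes tested, 21 rose and 0 fell, with a median log2 difference of 1.27, beside 0.01 over all genes tested. The antiviral gene Rsad2 (2.67, SE 0.17), Rtp4 (1.89, SE 0.06) and Oasl2 (1.70, SE 0.10) were among them. Of 18 receptor and signalling genes, 7 rose and 1 fell. Usp18, a feedback inhibitor of the type I receptor, rose by 2.18 (SE 0.15), the transcription factor Irf7 by 1.76 (SE 0.11) and Irf9 by 0.85 (SE 0.10). Of 7 other IRG and GBP genes tested, 3 rose, namely Tgtp1 (1.59, SE 0.25), Tgtp2 (0.98, SE 0.20) and F830016B08Rik (1.77, SE 0.41), all with an adjusted p of at most 0.00111 in edgeR. Tgtp1 and Tgtp2 are near-identical copies, so their separate values are uncertain.

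Cells with 2 or more UMIs of mature macrophage, B or plasma cell markers made up 46.0% of Ifit1-positive and 46.1% of Ifit1-negative cells. Without them the same number, 8 genes, was called, where 4.1% of all genes were. Their share was 83.0% in lymphoid-primed-like cells and 64.6% in cluster 7, against 24.7% in HSC-like cells. The limit of 2 UMIs was not scaled for depth. Leaving these cells out thus also removed progenitor clusters unevenly, and how many were contaminating cells was not tested. B and plasma cell markers summed to 229 CPM in positive cells, against 2629 CPM in negative cells, and granulocyte markers to 48.5 CPM in positive cells, against 285 CPM in negative cells. Within 1 cluster at a time, 4 genes (Iigp1, Gm4951, Igtp and Irgm1) were called in HSC-like cells, 2 (Iigp1 and Irgm1) in lymphoid-primed-like cells and 6 in cluster 5, where 0.507%, 0.534% and 0.894% of all genes were called. With Rsad2 in place of Ifit1 to mark cells, 6 genes were called, where 2.23% of all genes were, and Iigp1 (1.81, adjusted p = 0.0917) and Irgm2 (0.69, 0.258) were not.

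The Ifit1-state difference was then compared between genotypes. Of the 9 genes, 0 were called for the interaction in edgeR, 0 had an unadjusted p under 0.05 and 0 were called with DESeq2, where 0.127% of all genes were called by edgeR. Of 24 other interferon-stimulated genes tested, edgeR called 2 higher and 1 lower, and DESeq2 called 0. The largest interactions among the 9 genes were -0.50 (SE 0.31) for Gbp3 and 0.33 (SE 0.24) for Igtp. They are on the log2 scale, as the difference in Helios-deficient minus that in wild-type mice. Standard errors up to 0.46 (Irgm2) leave room for sizeable differences in either direction.

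Within Ifit1-positive cells, 0 of the 9 genes were called between genotypes in edgeR and 0 with DESeq2, and 0.229% of all genes were called. At an unadjusted p under 0.05 there was 1 of the 9, where 5.01% of all genes were. Gm4951 had a log2 difference of 0.84 (SE 0.23, adjusted p = 0.259). Of 27 other interferon-stimulated genes tested in positive cells, edgeR called 1, Ifi27l2a, higher by 1.22 (SE 0.24, adjusted p = 0.0132). DESeq2 called 0 of them. Within Ifit1-negative cells, 0 were called by either tool, where 1.16% of all genes were called in edgeR. At an unadjusted p under 0.05 there were 4 of the 9, where 10.9% of all genes were. Gm4951 differed there by 0.80 (SE 0.22, adjusted p = 0.0836). Its interaction between genotype and state was 0.08 (SE 0.31). With wild-type mouse 2 as the single wild type, 2 genes were called in positive cells and 1 in negative cells, where 0.311% and 1.06% of all genes were.

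Surface protein gave a division that used no RNA. Stem cells in mice are CD150-high and CD48-low. Cells in the lowest 25% for CD48 (at most 69 tag counts) and the upper 25% for CD150 (at least 95) numbered 224, or 35 to 82 per mouse. They were compared with 876 cells in the upper 50% for CD48 (at least 111) and the lower 50% for CD150 (at most 78). Tag counts were not scaled. The gates differed in depth, with a median of 7004.5 UMIs in CD48-low CD150-high cells, against 9914 UMIs in CD48-high CD150-low cells. Of the 9 genes, 6 were higher in CD48-low CD150-high cells, where 10.4% of 8321 genes were called higher and 20.3% in either direction.

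Gm4951 stood at 96.2, 27.9, 24.3 and 28.7 CPM in CD48-low CD150-high cells of Helios-deficient mice 1 and 2 and wild-type mice 1 and 2, against 6.24, 10.2, 10.5 and 3.37 CPM in CD48-high CD150-low cells. The gates did not overlap, and Helios-deficient mouse 1 was far above the other 3. The log2 difference was 2.25 (SE 0.27, adjusted p = 9.3e-15 in edgeR). Iigp1 stood at 159, 48.4, 82.5 and 60.7 CPM in CD48-low CD150-high cells, against 21.5, 31.4, 30.6 and 10.1 CPM in CD48-high CD150-low cells, a log2 difference of 1.73 (SE 0.19, adjusted p = 2.6e-13 in edgeR).

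Irgm2 (1.38, SE 0.35, adjusted p = 0.00072), Gbp7 (0.69, SE 0.16, 0.00013), Gbp2 (0.63, SE 0.19, 0.0086) and Igtp (0.61, SE 0.20, 0.0139) were also called in edgeR. Irgm1 (0.21, SE 0.17), Ifi47 (0.19, SE 0.12) and Gbp3 (0.08, SE 0.24) were not. With DESeq2, which called 9.89% of all genes, Gbp2 (adjusted p = 0.234) and Igtp (0.255) were not called. Igtp's difference rested on Helios-deficient mouse 1, without which it was 0.24 with an adjusted p of 0.551. Gbp2's was 0.43 (0.157) without the same mouse and 0.64 (0.0689) without Helios-deficient mouse 2. After thinning to 3000 UMIs per cell, Gm4951, Igtp and Gbp2 were called, where 16.1% of all genes were, Iigp1 (1.76, adjusted p = 0.104) and Gbp7 (0.65, 0.0693) were not, and Irgm2 did not pass the filter on low counts.

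Of the CD48-low CD150-high cells 16.5% were Ifit1-positive, against 10.3% of CD48-high CD150-low cells. Among cells with no detected Ifit1 UMI, 4 genes were called between the gates, where 17.3% of all genes were. The log2 differences there were 2.58 for Gm4951 and 1.63 for Iigp1, beside 2.25 and 1.73 in all cells. At least 2 UMIs of macrophage, B or plasma cell markers were found in 25% of CD48-low CD150-high cells, against 63.5% of CD48-high CD150-low cells. This share also differed between clusters, as given above, and how far it counts contaminating cells was not tested. Granulocyte markers came to 12.4 CPM in CD48-low CD150-high cells, against 247 CPM in CD48-high CD150-low cells, and erythrocyte and platelet markers to 433 CPM, against 107 CPM. B and plasma cell markers came to 109 CPM in CD48-low CD150-high cells, against 1546 CPM in CD48-high CD150-low cells. Without the cells holding at least 2 UMIs of macrophage, B or plasma cell markers, 3 genes were called, where 16.9% of all genes were, Gm4951 with a log2 difference of 1.95 (adjusted p = 6.5e-05 in edgeR), and Iigp1 missed the threshold at 2.12 (0.0527).

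Of 21 other interferon-stimulated genes tested between the gates, 5 rose and 2 fell, with a median log2 difference of 0.29, beside 0.01 over all genes tested. The RNA sensor gene Ifih1 (0.94, SE 0.27), Oasl2 (0.63, SE 0.18) and the ubiquitin-like Isg15 (0.51, SE 0.16) rose, and Ifi27l2a fell by 2.12 (SE 0.29). Of 17 receptor and signalling genes 2 rose and 2 fell. Irf2, which restrains the interferon response, rose by 0.58 (SE 0.12) and Socs1, an inhibitor of JAK kinases, by 0.89 (SE 0.34). Irf8, a transcription factor of myeloid and lymphoid commitment, fell by 3.19 (SE 0.29) and the receptor subunit Ifnar2 by 0.81 (SE 0.17). These genes had an adjusted p of at most 0.0426 in edgeR. DESeq2 called only 2 of the other interferon-stimulated genes, and 3 of the receptor and signalling genes. The gate by genotype interaction called 0 of the 9 genes in edgeR, 0 with DESeq2 and 0 at an unadjusted p under 0.05, and 0% of all genes. Its largest value was 0.91 (SE 0.67) for Gm4951.

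**Figure D4:**
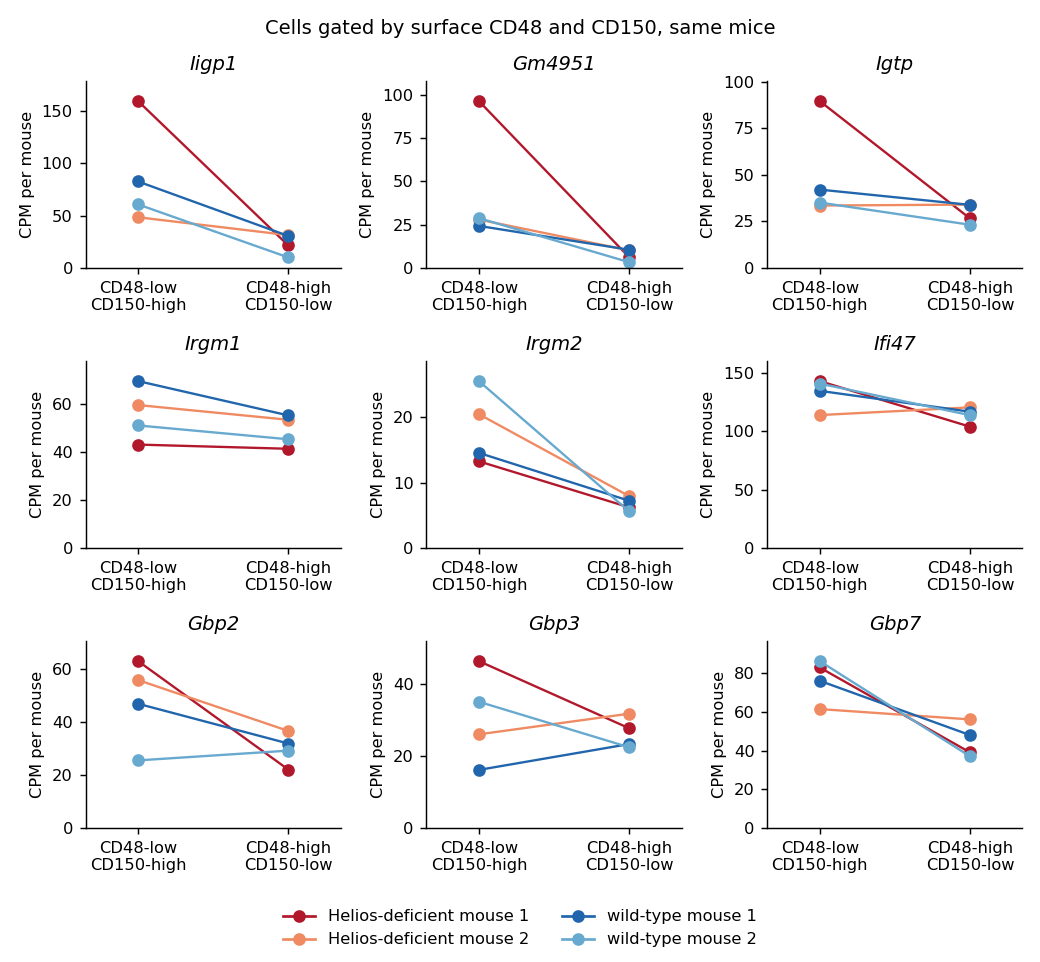
CPM of each gene (y axis, from 0) in CD48-low CD150-high cells (left of each panel) and CD48-high CD150-low cells (right), 1 line per mouse. Gm4951, Iigp1, Irgm1, Irgm2 and Gbp7 fall to the right in 4 of 4 mice, and Gbp3 in 2 of 4.

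Cells were also clustered without the 9 genes and without the interferon lists, which gave 9 clusters. Levels over clusters are given as a description, with no test. Among the 8 clusters of over 100 cells, the HSC-like cluster (700 cells) had the highest mean over mice for 7 of the 9 genes. This cluster was led by Meg3, Mllt3, Pdzk1ip1 and Sult1a1 of the stem cell markers, but also by the B cell and MHC class II genes Igkc, Ighm, Cd74 and H2-Aa, and its median depth of 5975.5 UMIs was low.

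Gm4951 ran from 43.9 ± 19.4 CPM (SD, n = 4 mice) in HSC-like cells through 23.9 CPM in cluster 5 and 17.4 CPM in lymphoid-primed-like cells to 5.46 CPM in myeloid-primed-like and 1.37 CPM in megakaryocyte-primed-like cells. Iigp1 ran from 87.1 ± 30.6 CPM in HSC-like cells to 7.41 ± 4.56 CPM in megakaryocyte-primed-like cells. Irgm1 was highest in cluster 5, at 66.7 CPM, the cluster led by histone genes and Ifit1. Ifi47 was nearly level, between 105 and 147 CPM, and was highest in megakaryocyte-primed-like cells.

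Going down each gene's order over all 9 clusters, neighbouring clusters overlapped between mice for all 8 pairs in 7 genes and for 7 of 8 pairs in Irgm2 and Gbp2. The order of neighbours is therefore not resolved, while HSC-like and megakaryocyte-primed-like cells did not overlap for any of the 9 genes. Ifi47 was the higher in megakaryocyte-primed-like cells, and the other genes in HSC-like cells.

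**Figure D5:**
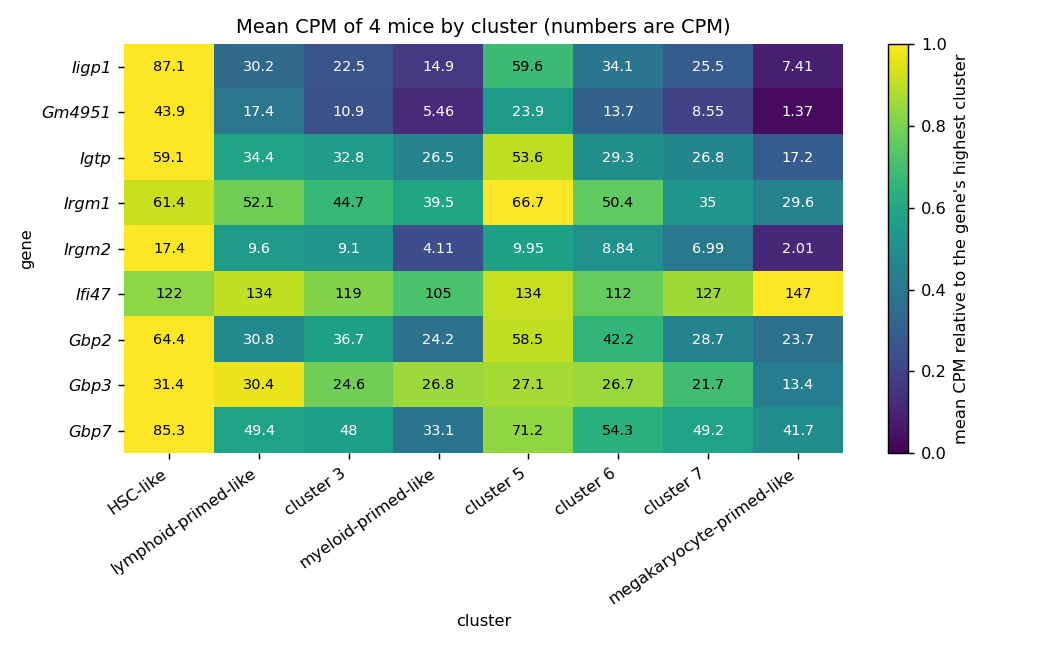
Mean CPM over the 4 mice (numbers in cells) by gene (rows) and cluster of at least 100 cells (columns); colour gives the level relative to that gene's highest cluster. HSC-like cells hold the highest value in 7 rows, and Ifi47 varies least.

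Genotype was tested within the 5 clusters that had 50 cells in every mouse. In HSC-like cells 2 of the 9 genes were called, where 0.86% of all genes were called and 0.466% were called higher. Gm4951 measured 70.7 and 45.7 CPM in Helios-deficient HSC-like cells, against 31.3 and 27.9 CPM in wild-type ones (log2 difference 0.86, SE 0.23, adjusted p = 0.0264 in edgeR). Iigp1 measured 131 and 84.9 CPM in Helios-deficient HSC-like cells, against 67.5 and 65.1 CPM in wild-type ones (0.61, SE 0.16, adjusted p = 0.0296). Neither genotype's mice overlapped the other's for these genes. The share of all genes separated in this way was not computed for this cluster. In all kept cells, 19.9% of genes tested had both Helios-deficient mice above both wild-type mice. Both calls were lost with DESeq2 and without Helios-deficient mouse 1 (adjusted p of 0.705 and 0.796), wild-type mouse 1 (0.124 and 0.129) or wild-type mouse 2 (0.237 and 0.215). In the same test the interferon signalling gene Irf9 (0.66, adjusted p = 0.0180) and Bst2 (0.44, 0.00405) rose, 1 of 17 and 1 of 22 genes tested in their lists. The globin gene Hbb-bt (-1.26, adjusted p = 3.7e-06) and Nkg7 (-0.68, 0.0136), of the erythrocyte and NK cell markers, fell in edgeR. DESeq2 called 0 genes in each of the lists that hold Irf9, Bst2, Hbb-bt and Nkg7. What part these genes have in the result was not tested.

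In lymphoid-primed-like cells, cluster 3, myeloid-primed-like cells and cluster 5, 0 of the 9 genes were called in edgeR, where 1.09%, 0.157%, 0.329% and 0.139% of all genes were. DESeq2 also called 0, but gave Gm4951 no adjusted p in lymphoid-primed-like and myeloid-primed-like cells. At an unadjusted p under 0.05 there were 2, 1, 1 and 1 of the genes, where 11.5%, 5.26%, 6.3% and 5.39% of all genes were. Irgm2 did not pass the filter on low counts in myeloid-primed-like cells and cluster 5. Gm4951 measured 34.1 and 17.2 CPM in Helios-deficient lymphoid-primed-like cells, against 9.87 and 8.39 CPM in wild-type ones (1.31, SE 0.38, adjusted p = 0.117), and was called with Helios-deficient mouse 1 as the single mouse of its genotype (1.88, 0.0235), where 0.738% of all genes were. In lymphoid-primed-like cells edgeR called 2 of 22 other interferon-stimulated genes higher in Helios-deficient mice, and DESeq2 called 1 gene of that list. Whether the genotype difference differs between clusters was not tested.

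Across 34 sums of a mouse and a cluster with at least 10 cells, the genes whose log2(CPM + 1) was most like that of the summed 9 genes were the MHC class I light chain gene B2m (Pearson r = 0.91), Nkx2-3 (0.90), Laptm4a (0.89), Tmem59 (0.88) and Trim30a (0.88), among 7751 genes of at least 10 CPM with a median r of 0.12. These sums share mice, run and depth, so the values are a description.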

How the data were processed

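The 9 genes and the lists were chosen with earlier results of these data known. The deposited matrix holds UMI counts, whole numbers that the authors had not scaled; Cell Ranger, Seurat 3.0.0 and build mm10 come from the submitters' processing notes, and software 3.0.2 from the file header. The authors' hashtag calls gave each cell's mouse, and 3470 of 4108 barcodes were on their kept list. Doublets between mice were called by the authors from hashtags, and no other caller was run. UMIs were summed per mouse (n = 2 per genotype), and per mouse and state with the mouse as a block, and tested with edgeR 4.0.16 (R 4.3.3; TMM, filterByExpr, robust quasi-likelihood), with DESeq2 1.42.0 as an alternative. The SE is the log2 difference divided by the root of F. The mouse was the replicate, and all mice shared 1 run. The tests were checked on simulated counts. Clusters used scanpy 1.11.5 (Pearson residuals, theta 100, 1500 genes, 30 components, 20 neighbours) and leidenalg 0.10.2 at resolution 0.5. A cluster is "-like" with at least 3 of a type's markers enriched 2-fold, 1 of them among its 10 leading genes, and no other type with more. Named are the 9 genes, Ikzf2, up to 4 genes with the smallest p of each list and comparison, and the 5 most alike genes; markers of cells and clusters were named beside them. A gene that this rule also picked is not reported here. Thinning to 3000 UMIs left out 17 shallower cells. Sequences come from RefSeq's GRCm38.p6 table.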

Additional observations from a re-analysis of the deposited data

Results flagged for a closer look

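RNA of the 9 genes was also present in barcodes that no comparison used. The summed genes stood at 381.6 CPM in the 35 barcodes without a hashtag (76 UMIs), where 3 counts would be 15.1 CPM. They stood at 316.5 CPM in the 231 hashtag doublets, which had a median of 12133 UMIs, and at 249.4 CPM in the 372 single-mouse barcodes that the authors left out, which had a median of 1895.5 UMIs. No barcode of these 3 kinds entered a comparison, apart from the single-mouse barcodes in 1 alternative. Over the 4 mice, 18 log2 ratios between states were examined for a mouse far from the others, 9 for Ifit1 state and 9 for the surface gates, and 0 passed Dixon's 95% critical value; the nearest was Ifi47 by Ifit1 state, with wild-type mouse 1 at 0.57 and the others at 0.34, 0.35 and 0.29.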

How the results depend on the processing

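No log2 difference of the 9 genes that was called changed sign under any alternative tried. The number of genes called between genotypes in all cells, 1, was 0 with DESeq2, without the robust option and after thinning to 3000 UMIs, and 0 to 2 when each mouse was left out. In Ifit1-negative cells it was 1 without the filter on low counts, and 0 to 1 without each mouse. In Ifit1-positive cells it was 0 to 2 without each mouse. In HSC-like cells, where it was 2, it was 0 with DESeq2 and 0 to 2 without each mouse, and in lymphoid-primed-like cells 0 to 1. The Ifit1-state count of 8 was 8 with DESeq2, 9 with at least 2 Ifit1 UMIs, 7 after thinning and 8 with no replicate block; within HSC-like cells it was 4 and within lymphoid-primed-like cells 2, where fewer cells were summed. The gate count of 6 was 4 with DESeq2, 3 after thinning, 3 without mature cell transcripts, 4 to 6 without each mouse and 0 with gates at 10%, where only 3 to 11 cells per mouse remained in the smaller gate. The causes of the other changes were not tested. The alternatives on mature cells at 10 UMIs, on single clusters and within Ifit1-negative cells for the gates were chosen after seeing the data, as was that on mature cells for the Ifit1 states and the gates. Hashtag numbers do not pair mice of the 2 genotypes. Counts were also simulated for the genotype comparison in all cells (11603 genes), where 2-fold changes were called in 100 of 100 genes and 1.5-fold changes in 57 of 100. In the same simulation 12 unchanged genes were called. The changed genes were drawn from those above a minimum level, which Gm4951 and Irgm2 did not reach. Every simulated gene had the same fixed spread between mice, so these rates do not carry over to the 9 genes.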
